A study of Homo sapiens with 6 samples.

Results

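The transcripts described here were those of 10 genes that restrain the RAS-ERK pathway from within: the phosphatase genes DUSP1, DUSP4, DUSP5, DUSP6 and DUSP7, the Sprouty genes SPRY1, SPRY2 and SPRY4, and the SPRED genes SPRED1 and SPRED2. They were taken by gene name, 10 of the 58676 genes in the deposited expression table, and all 10 were among the 13745 genes expressed highly enough to be tested, with a mean of at least 0.5 FPKM over the samples. FPKM is the number of read fragments on a gene scaled to its length and to the depth of the sample. RNA was sequenced from 3 flasks of DCIS.COM cells that carried the PLKO.1 non-silencing vector (NS control) and from 3 flasks of DCIS.COM cells that carried PLKO.1 with an shRNA against BCL9 (BCL9 KD). DCIS.COM is an established human breast line used as a model of ductal carcinoma in situ, and both groups had been transduced with lentivirus and were grown with horse serum. The labels name a single BCL9 shRNA vector treatment and do not say whether the flasks came from separate transductions, so the p-values measure the spread between flasks.

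ERK is the last kinase of a relay that runs from growth factor receptors through RAS, RAF and MEK. Active ERK switches on transcription of many of its own inhibitors, and for this reason their transcripts are commonly read as a gauge of ERK output. The DUSP proteins are phosphatases that remove the activating phosphates from MAP kinases. Sprouty proteins act between the receptor and RAF, and SPRED proteins bring the RAS inactivator neurofibromin to the membrane. BCL9 is a co-activator that links beta-catenin to transcription in the Wnt pathway. The comparison asks whether the transcripts of these feedback inhibitors differed when BCL9 was knocked down.

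The promoters of DUSP6, DUSP7 and SPRY1 are shown because these 3 genes had the feedback transcripts with no overlap between the groups and an unadjusted p under 0.05. Each window runs from 250 bases before to 50 bases from the RefSeq start site (GRCh38.p14), 5′ to 3′ on the gene's strand, and SPRY1 has 2 listed starts. Capitals mark matches, on either strand, to any of 8 binding motifs of factors or promoter elements. For AP-1, the pair of FOS and JUN proteins, the letters searched were TGANTCA. For CRE, the cyclic AMP response element, they were TGACGTCA, and for ETS factors, some of which ERK phosphorylates, CCGGAAG. For STAT factors the search used TTCNNNGAA, and for TCF/LEF, the partners of beta-catenin, it used CTTTGAT. The SP1 motif searched was GGGCGG, that of the TATA box was TATAAA, and the CArG box, which serum response factor binds, is given by its name alone.
DUSP6, chr12:89352452-89352751, minus strand: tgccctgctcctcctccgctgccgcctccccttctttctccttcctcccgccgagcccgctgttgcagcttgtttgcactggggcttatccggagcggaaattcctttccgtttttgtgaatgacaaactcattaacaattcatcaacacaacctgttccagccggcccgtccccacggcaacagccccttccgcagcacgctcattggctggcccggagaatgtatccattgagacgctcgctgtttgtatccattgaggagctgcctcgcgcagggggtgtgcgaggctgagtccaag
DUSP7, chr3:52056522-52056821, minus strand: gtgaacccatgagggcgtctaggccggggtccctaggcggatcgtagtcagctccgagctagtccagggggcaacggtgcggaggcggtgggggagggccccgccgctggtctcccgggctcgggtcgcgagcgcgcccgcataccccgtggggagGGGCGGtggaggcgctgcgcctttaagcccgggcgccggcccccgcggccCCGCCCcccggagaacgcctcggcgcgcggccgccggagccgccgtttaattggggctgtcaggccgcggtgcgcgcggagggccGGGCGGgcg
SPRY1 window 1, chr4:123396545-123396844, plus strand: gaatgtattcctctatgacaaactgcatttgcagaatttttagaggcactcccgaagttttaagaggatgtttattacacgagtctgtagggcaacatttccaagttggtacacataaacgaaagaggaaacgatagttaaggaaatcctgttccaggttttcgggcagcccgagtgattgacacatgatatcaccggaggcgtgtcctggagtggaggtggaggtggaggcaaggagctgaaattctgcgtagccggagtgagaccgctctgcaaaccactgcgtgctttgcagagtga
SPRY1 window 2, chr4:123398136-123398435, plus strand: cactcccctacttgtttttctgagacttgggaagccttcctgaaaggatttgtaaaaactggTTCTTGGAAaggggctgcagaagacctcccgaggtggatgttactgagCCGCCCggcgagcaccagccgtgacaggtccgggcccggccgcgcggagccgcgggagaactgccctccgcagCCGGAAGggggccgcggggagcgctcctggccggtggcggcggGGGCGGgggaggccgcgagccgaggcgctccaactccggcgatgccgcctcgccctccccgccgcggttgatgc

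The DUSP6 window and the SPRY1 window 1 held none of the 8 motifs. The DUSP7 window, at 78% GC, held only SP1 matches. The SPRY1 window 2 held SP1, ETS and STAT matches, none of which overlapped another. Windows of 8 of the 10 genes, 12 in all, were searched, without DUSP4 and DUSP5. SP1 matches were in 8 of the 12, against 44.95% of the 35116 RefSeq windows. TATA matches were in 2 (11.53% of all windows), and AP-1 (7.709%), CRE (1.848%), ETS (10.26%) and STAT (7.657%) matches were in 1 each. The CRE match was in the DUSP1 window, the AP-1 match in a window of SPRED2, and these same windows held the TATA matches. TCF/LEF letters, which 2.617% of all windows held, and the CArG box, in 1.293%, were in none of the 12. A match is a run of letters and does not show binding.

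The number of reads counted on genes was between 15222452 and 22712638 in NS control and between 15665714 and 26949026 in BCL9 KD samples. The replicates correlated at 0.9641 to 0.9771 in NS control and 0.9793 to 0.987 in BCL9 KD. NS control replicate 1 stood apart in base composition: its log2 values rose by 0.21 for each 10% more GC in the transcript, whereas the slope lay between −0.07 and 0.01 in the other 5 samples. BCL9 was 6.25, 6.24 and 5.34 FPKM in NS control and 2.86, 2.78 and 2.59 FPKM in BCL9 KD (log2 fold change −0.99, SE 0.0933, limma adjusted p = 0.00773). Basal epithelial markers were expressed in all samples, 6 of 6 at a mean of 0.5 FPKM or more, with a sum of 1016 to 1191 FPKM in NS control and 1055 to 1111 FPKM in BCL9 KD. Of 7 luminal markers 5 were expressed, summing to 585 to 697 and 538 to 568 FPKM, with PGR at 0. Of 12 fibroblast, endothelial and leukocyte markers 2 were, COL1A1 and PECAM1, while COL3A1 was at 0 in every sample. Over all 12 markers the sum was 2.37 to 2.91 FPKM in NS control and 3.91 to 4.61 FPKM in BCL9 KD. Most of it was PECAM1, with 2.28, 2.29 and 1.72 FPKM in NS control and 3.91, 3.11 and 3.32 FPKM in BCL9 KD. PECAM1 passed the threshold of 0.05 (log2 fold change 0.61, limma adjusted p = 0.0477) and COL1A1 did not (0.10, 0.693). The part of this difference in the results was not tested.

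No feedback inhibitor passed the test. Of the 10 genes, 0 had an adjusted p under 0.05 by limma on log2(FPKM + 0.5), against 5.87% of all genes tested (2.96% higher and 2.91% lower in BCL9 KD), and 0 passed with voom on the recovered reads, against 10.1%. At an unadjusted p under 0.05 there were 4, DUSP4, DUSP6, DUSP7 and SPRY1, against 27.5% of all genes. The groups did not overlap for 4, DUSP6, DUSP7, SPRY1 and SPRY2, against 34.2% of all genes. Fold changes of BCL9 KD over NS control on the log2 scale were above 0 for 4 genes and below 0 for 6, with a median of −0.07, and the median over all genes was 0.04. In this bulk measurement, fewer cells that express a gene and less RNA per cell cannot be told apart.

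**Figure D1:**
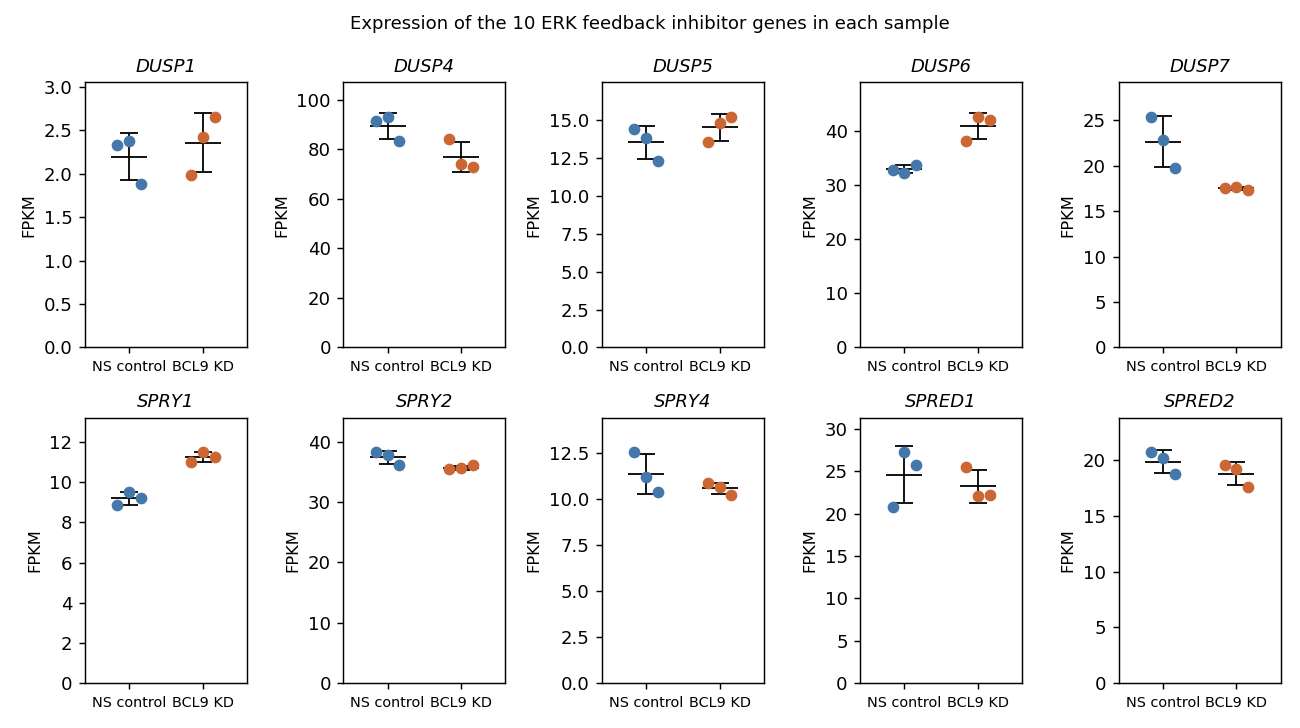
FPKM of each of the 10 feedback inhibitor genes in the NS control and BCL9 KD samples, a panel per gene, with points for samples and the group mean and SD. DUSP6 sits between 32.3 and 33.8 FPKM in NS control and between 38.2 and 42.6 FPKM in BCL9 KD, and DUSP7 between 19.7 and 25.4 and between 17.4 and 17.6 FPKM.

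DUSP6 and DUSP7 are close relatives, cytoplasmic phosphatases that act mainly on ERK, and their fold changes had opposite signs. DUSP6 (ENSG00000139318, chr12:89347232-89353271, minus strand) was 32.7, 32.3 and 33.8 FPKM in NS control and 38.2, 42.6 and 42.1 FPKM in BCL9 KD. Every BCL9 KD sample was above every NS control sample, 1.24 times by the ratio of the means, 32.9 ± 0.766 and 41.0 ± 2.40 FPKM (SD, n = 3 each). Its log2 fold change was 0.31 (SE 0.0694, 95% interval 0.15 to 0.47), and the limma adjusted p was 0.0501, just outside the threshold. It was 0.0693 with voom. Of all genes tested, 30.5% had a log2 fold change at least as large in size. DUSP7 (ENSG00000164086, chr3:52048919-52056550, minus strand) was 25.4, 22.9 and 19.7 FPKM in NS control and 17.5, 17.6 and 17.4 FPKM in BCL9 KD. Its 3 BCL9 KD samples were nearly equal and all below the NS control samples, which were spread. The ratio of the means was 0.773, 22.7 ± 2.83 and 17.5 ± 0.139 FPKM (SD, n = 3 each), and the log2 fold change was −0.36 (SE 0.0978, 95% interval −0.59 to −0.12, limma adjusted p = 0.0757). A change of that size or larger was found in 24.4% of genes.

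Both results lay near the threshold and moved across it, but did not pass in most settings. DUSP6 passed in 4 of 12 other settings and in 2 of 6 fits with a sample left out, and DUSP7 in 1 of 12 and 1 of 6. In the other settings the limma adjusted p reached 0.128 for DUSP6 and 0.168 for DUSP7. With a sample left out it reached 0.218 and 0.248. With a correction for GC content, under which 11.8% of genes tested passed, DUSP6 stood at 0.33 on the log2 scale (limma adjusted p = 0.0267) and DUSP7 at −0.32 (limma adjusted p = 0.0386). DUSP7 has the most GC-rich transcripts of the 10 genes, 59.6% GC, and its highest value was in NS control replicate 1, the sample with the steepest GC slope. Without that sample its log2 fold change was −0.27 (limma adjusted p = 0.0877). DUSP6 also passed with an added value of 1 FPKM (limma adjusted p = 0.0498, 6.12% of genes), with a minimum mean of 1 FPKM (0.0444, 8.62%) and with quantile normalization (0.0464, 7.88%). Leaving out NS control replicate 3 brought both genes past the threshold, DUSP6 at a limma adjusted p of 0.0477 and DUSP7 at 0.0304, when 12.5% of all genes passed. Without BCL9 KD replicate 1 only DUSP6 passed among the 10 genes (limma adjusted p = 0.0418), with 5.35% of all genes. In the exact permutation test of either gene p was 0.1, the smallest that 3 against 3 samples allow.

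**Figure D2:**
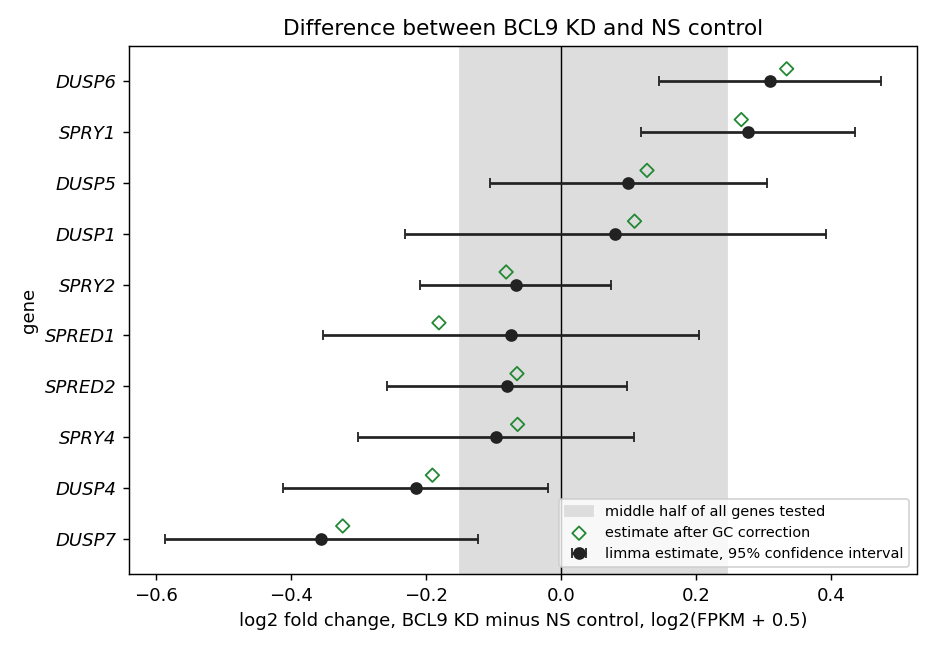
The log2 fold change of BCL9 KD over NS control for each feedback inhibitor, with the 95% interval as a bar and the GC-corrected value as a diamond; the grey band is the interquartile range of all genes tested, −0.15 to 0.25. DUSP6 at 0.31 and SPRY1 at 0.28 lie above the band and DUSP7 at −0.36 and DUSP4 at −0.22 below it.

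DUSP1, DUSP4 and DUSP5 are inducible phosphatases of the nucleus. DUSP4 (ENSG00000120875, chr8:29333064-29350668, minus strand) was the most abundant of the 10 transcripts per length, with 91.7, 93.2 and 83.6 FPKM in NS control and 84.1, 74.1 and 72.9 FPKM in BCL9 KD. Its groups overlapped, since BCL9 KD replicate 1 exceeded NS control replicate 3. The means were 89.5 ± 5.15 and 77.0 ± 6.11 FPKM (SD, n = 3 each), and the log2 fold change was −0.22 (SE 0.0832, 95% interval −0.41 to −0.02, limma adjusted p = 0.151). DUSP5 (ENSG00000138166, chr10:110497838-110511544, plus strand), which is selective for ERK, was 14.4, 13.8 and 12.3 FPKM in NS control and 13.5, 14.8 and 15.2 FPKM in BCL9 KD. These values overlapped (log2 fold change 0.10, 95% interval −0.11 to 0.30, limma adjusted p = 0.477).

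DUSP1 (ENSG00000120129, chr5:172768090-172771195, minus strand) is an immediate early gene whose protein also acts on p38 and JNK. It was the least abundant member, with 2.33, 2.37 and 1.89 FPKM in NS control and 1.99, 2.43 and 2.66 FPKM in BCL9 KD. Between 58 and 132 reads stood behind each of these values, so its counting error was larger than that of the others. The groups overlapped, the log2 fold change was 0.08 (SE 0.132, 95% interval −0.23 to 0.39, limma adjusted p = 0.717), and without NS control replicate 3 it was −0.0053.

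Sprouty proteins are inhibitors of receptor tyrosine kinase signaling, and 1 of the 3 Sprouty transcripts had an interval that excluded 0. SPRY1 (ENSG00000164056, chr4:123396795-123403760, plus strand) was 8.87, 9.50 and 9.23 FPKM in NS control and 11.0, 11.5 and 11.3 FPKM in BCL9 KD. All BCL9 KD samples were above all NS control samples, and the spread within each group was small (9.20 ± 0.320 and 11.3 ± 0.253 FPKM, SD, n = 3 each). The log2 fold change was 0.28 (SE 0.0671, 95% interval 0.12 to 0.44), with a limma adjusted p of 0.0571, 0.0866 with voom and 0.0313 with the GC correction. Whichever of the 6 samples was dropped, SPRY1 stayed between 0.25 and 0.30 on the log2 scale, at a limma adjusted p of 0.0598 to 0.233.

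SPRY2 (ENSG00000136158, chr13:80335976-80340951, minus strand) was 38.3, 37.9 and 36.3 FPKM in NS control and 35.5, 35.7 and 36.1 FPKM in BCL9 KD. The groups did not overlap, although the lowest NS control and the highest BCL9 KD value nearly met. On the log2 scale the fold change was −0.07 (95% interval −0.21 to 0.07, limma adjusted p = 0.488), an interval that leaves out a change of the size of that of DUSP6. SPRY4 (ENSG00000187678, chr5:142310427-142326455, minus strand) was 12.6, 11.2 and 10.4 FPKM in NS control and 10.9, 10.7 and 10.2 FPKM in BCL9 KD, with overlap between the groups. Its log2 fold change was −0.10 (95% interval −0.30 to 0.11, limma adjusted p = 0.488).

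The SPRED transcripts did not differ detectably. SPRED1 (ENSG00000166068, chr15:38252326-38357249, plus strand) was 20.8, 27.2 and 25.8 FPKM in NS control and 25.5, 22.0 and 22.1 FPKM in BCL9 KD. The lowest of its 6 values was in NS control replicate 1, and SPRED1 has the least GC-rich transcripts of the 10 genes, 43.8% GC. Its log2 fold change was −0.07 (SE 0.117, 95% interval −0.35 to 0.20, limma adjusted p = 0.707), −0.18 with the GC correction (limma adjusted p = 0.163) and −0.19 without NS control replicate 1 (0.202). It was 0.0027 without NS control replicate 2. SPRED2 (ENSG00000198369, chr2:65310851-65432637, minus strand) was 20.7, 20.2 and 18.7 FPKM in NS control and 19.6, 19.2 and 17.6 FPKM in BCL9 KD. The groups overlapped (log2 fold change −0.08, 95% interval −0.26 to 0.10, limma adjusted p = 0.510).

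In the order of levels, per length, DUSP4 was first and DUSP1 last in both groups. In NS control, DUSP4 was followed by SPRY2, DUSP6, SPRED1, DUSP7, SPRED2, DUSP5, SPRY4 and SPRY1. SPRED1 and DUSP7, DUSP7 and SPRED2, and DUSP5 and SPRY4 overlapped as neighbours in that order. In BCL9 KD, the order was DUSP4, DUSP6, SPRY2, SPRED1, SPRED2, DUSP7, DUSP5, SPRY1, SPRY4 and DUSP1, and SPRED2 and DUSP7 were the neighbours that overlapped. DUSP6 stood below SPRY2 in all 3 NS control samples and above it in all 3 BCL9 KD samples, with DUSP6 to SPRY2 ratios of 0.855, 0.851 and 0.931 and of 1.08, 1.19 and 1.17. SPRY1 stood below SPRY4 in all NS control samples and above it in all BCL9 KD samples, with SPRY1 to SPRY4 ratios of 0.706, 0.847 and 0.888 in NS control and 1.01, 1.08 and 1.10 in BCL9 KD. The ratio of DUSP6 to DUSP7 was 1.29, 1.41 and 1.71 in NS control and 2.18, 2.41 and 2.42 in BCL9 KD. These pairs were chosen after their values were seen, and the exact permutation p of each ratio was 0.1, the smallest possible. The ratios do not depend on the scaling of a sample by its depth, but they do not remove a bias with GC. Transcript GC was 48.5% for SPRY1 and 56.6% for SPRY4, and 53.9% for DUSP6 and 59.6% for DUSP7. The lowest ratio of both these pairs, though not of DUSP6 to SPRY2, was in NS control replicate 1.

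Summed over the 10 genes, the transcripts amounted to 263 ± 10.2 FPKM in NS control and 252 ± 5.17 FPKM in BCL9 KD (SD, n = 3 each, exact permutation p = 0.2, two-sided). The 5 phosphatases made up 161 ± 8.29 and 152 ± 2.64 FPKM of these (exact permutation p = 0.3), and the 5 Sprouty and SPRED genes 103 ± 3.07 and 99.6 ± 2.53 FPKM (exact permutation p = 0.3). DUSP4 held 55.6 ± 0.859% of phosphatase FPKM in NS control and 50.5 ± 3.12% in BCL9 KD. DUSP6 held 20.5 ± 1.55% and 26.9 ± 2.00%, and DUSP7 14.1 ± 1.11% and 11.5 ± 0.183% (SD, n = 3 each). None of these 3 shares overlapped between the groups, and they too were chosen after their values were seen.

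**Figure D3:**
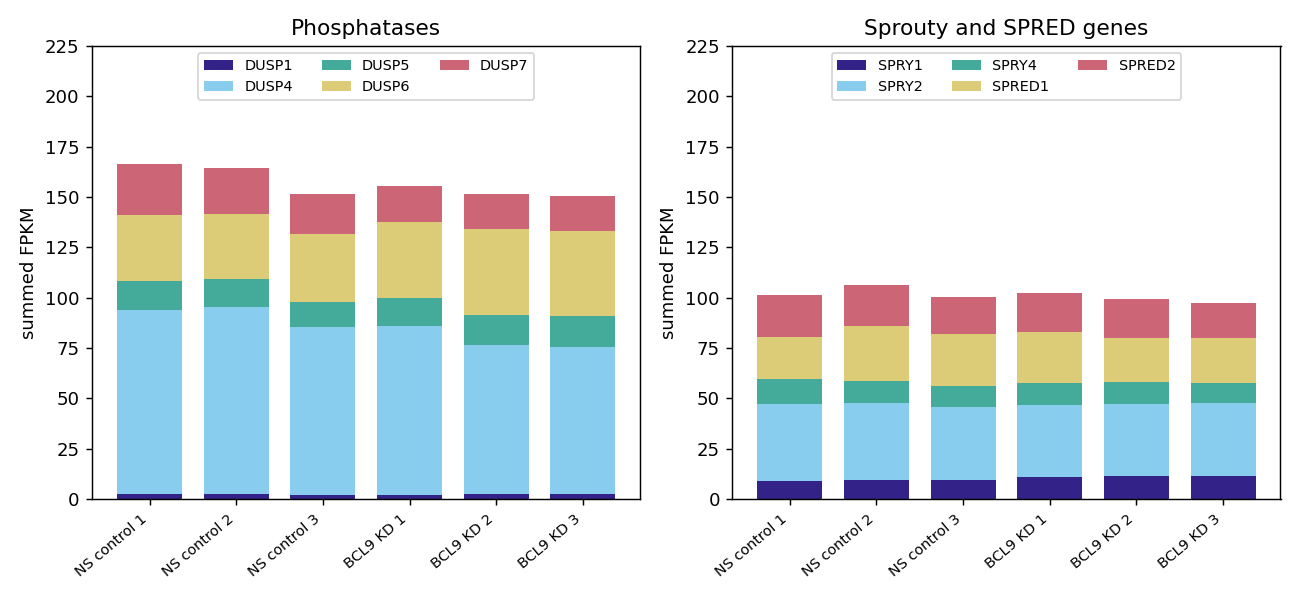
Stacked FPKM of the feedback inhibitors in each sample, from 0, with the phosphatases and the Sprouty and SPRED genes in separate panels. Each gene of a panel has its own colour. Phosphatase bars reach 151.3 to 166.5 FPKM in NS control and 150.2 to 155.3 FPKM in BCL9 KD, and DUSP4 is their widest layer. Sprouty and SPRED bars reach 100.4 to 106.1 FPKM in NS control and 97.4 to 102.4 FPKM in BCL9 KD. Added over the panels, the 10 genes total 251.7 to 270.6 FPKM in NS control and 247.6 to 257.7 FPKM in BCL9 KD.

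The other genes of the pathway were grouped into 6 lists by role. Of 11 further MAP kinase phosphatases and Sprouty or SPRED relatives, 9 were tested and 0 passed by limma (5.87% of all genes tested), with 3 at an unadjusted p under 0.05 (27.5% of all genes) and 1 passing with voom (10.1%). That gene was DUSP10, whose protein acts mainly on p38 and JNK, with a mean of 0.636 ± 0.0999 FPKM in NS control and 1.30 ± 0.267 FPKM in BCL9 KD (SD, n = 3 each, log2 fold change 0.65, limma adjusted p = 0.0610). DUSP2 and DUSP23 followed in size, with log2 fold changes of 0.29 and 0.31. DUSP9 and SPRY3 were too low to be tested. The median log2 fold change of the list was 0.13.

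Among 15 other inhibitors of receptor, RAS or ERK signaling, all tested, 1 passed in each direction, beside 5.87% of all genes tested, and the median was −0.09. At an unadjusted p under 0.05 there were 6, against 27.5% of all genes. IL17RD (also called SEF), a membrane protein that holds back FGF receptor and ERK signaling, was 72.5, 78.3 and 71.7 FPKM in NS control and 47.9, 40.6 and 41.2 FPKM in BCL9 KD, and it fell in BCL9 KD (log2 fold change −0.77, limma adjusted p = 0.0109). RASA1, which speeds GTP hydrolysis on RAS, was 10.6, 15.6 and 19.2 FPKM in NS control and 35.7, 29.7 and 32.7 FPKM in BCL9 KD, and it rose (log2 fold change 1.12, limma adjusted p = 0.0328). The groups lay apart for both genes, and the lowest RASA1 value was in NS control replicate 1. With the GC correction the log2 fold change of RASA1 was 0.90 (limma adjusted p = 0.00502). RASA2 (0.47), CBLB (0.44) and PTPN12 (0.38) had the next largest log2 fold changes and did not pass by limma. With voom CBLB passed (adjusted p = 0.0243). With the GC correction the log2 fold change was 0.28 for RASA2 and 0.11 for PTPN12. With each sample dropped in turn, RASA2 ranged from 0.22 to 0.74 and PTPN12 from 0.24 to 0.52. Each passed in 1 of these 6 fits (limma adjusted p 0.0468 and 0.0354), and CBLB in 0.

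Of 21 transcripts that ERK induces, other than the feedback inhibitors, 19 were tested, 5 rose and 1 fell, beside 5.87% of all genes tested that passed, and the median log2 fold change was 0.23. HBEGF, a ligand of the EGF receptor, was 13.6, 12.3 and 12.2 FPKM in NS control and 22.8, 25.7 and 25.2 FPKM in BCL9 KD (log2 fold change 0.92, limma adjusted p = 0.00730). The immediate early transcription factors FOS (0.76, 0.0290) and EGR3 (0.61, 0.0117), the nuclear protein PHLDA1 (0.42, 0.0371) and the cytokine LIF (0.38, 0.0291) also rose (in parentheses, the log2 fold change, then limma's adjusted p). With the GC correction PHLDA1 stood at 0.27 (limma adjusted p = 0.0428). CCND1, the cyclin that drives entry into S phase and a known Wnt target as well, fell from 96.5, 96.3 and 81.3 FPKM in NS control to 67.0, 61.6 and 60.0 FPKM in BCL9 KD (log2 fold change −0.53, limma adjusted p = 0.0301). At an unadjusted p under 0.05 there were 12 of the 19, against 27.5% of all genes. JUNB (0.30), ETV1 (0.43) and PLAUR (0.37) had the largest log2 fold changes among those that did not pass by limma. ETV1 passed with voom (adjusted p = 0.0289), and JUNB (0.0367) and PLAUR (0.0254) passed in limma with the GC correction. EGR2 and FOSB were too low to be tested.

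Of 20 genes of the RAS-ERK cascade itself, 19 were tested and the median log2 fold change was −0.02. SOS2 (0.50), SHOC2 (0.34) and RPS6KA1 (−0.16) did not pass the limma threshold, and KSR1 was too low to be tested. With the GC correction SHOC2 stood at 0.06. With each sample dropped in turn, SHOC2 ranged from 0.05 to 0.56 and RPS6KA1 from −0.24 to −0.05, and for both the end nearest 0 was without NS control replicate 1 and the other end without NS control replicate 3. SOS2 passed without NS control replicate 3 (0.68, limma adjusted p = 0.0309). Of 20 receptors and ligands that activate ERK, 15 were tested, 2 rose and 3 fell, beside 5.87% of all genes tested that passed, with a median of −0.28. At an unadjusted p under 0.05 there were 13 of the 15, against 27.5% of all genes. AREG, an EGF receptor ligand, was 29.8, 28.3 and 33.2 FPKM in NS control and 63.3, 77.5 and 80.4 FPKM in BCL9 KD (log2 fold change 1.26, limma adjusted p = 0.00736). Its relative EREG also rose (log2 fold change 0.83, limma adjusted p = 0.0236), whereas TGFA, another such ligand, fell (−0.38, 0.0466). The FGF receptor gene FGFR2 (−0.35, 0.0456) and the platelet-derived growth factor gene PDGFB (−0.67, 0.0109) fell too. ERBB3 (−0.44), BTC (0.80) and IGF1R (−0.35) did not pass by limma. With voom the adjusted p was 0.0294 for ERBB3 and 0.0291 for BTC, and with the GC correction the limma adjusted p of ERBB3 was 0.0364. EGF, FGFR3, HGF, PDGFRA and PDGFRB were too low to be tested.

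None of the p38 and JNK kinases passed by limma. Of 11 genes 10 were tested, without MAPK10, and 1 had an unadjusted p under 0.05 (27.5% of all genes), with 0 passing by voom (10.1%) and a median log2 fold change of 0.05. MAP2K7 (0.33), MAPK14 (−0.18) and MAP2K6 (0.13, but −0.0035 with the GC correction) were the largest in size, and MAP2K7 passed with the GC correction (limma adjusted p = 0.0221). Over the 6 lists together 14 genes passed. This count moved when a sample was left out. Without NS control replicate 2, BCL9 KD replicate 2 or BCL9 KD replicate 3 it was 0, and the count over the whole table was then 12, 13 and 5. Without BCL9 KD replicate 1 the list count was 8, without NS control replicate 1 it was 13, and without NS control replicate 3 it was 20. The cause was not tested.

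**Figure D4:**
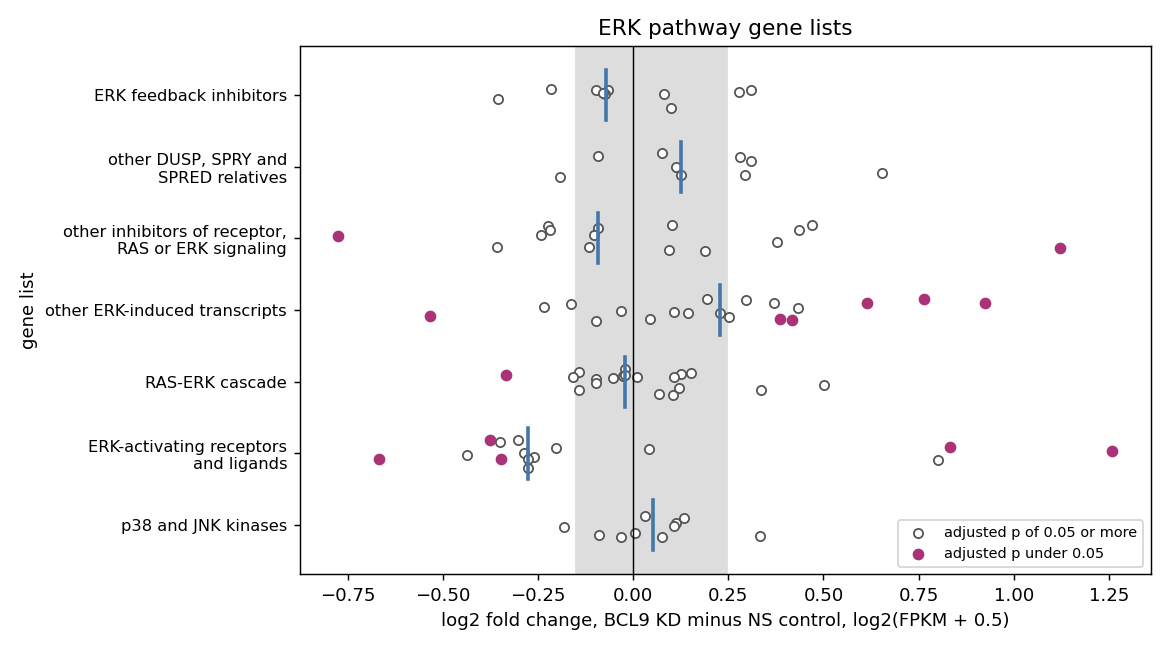
The log2 fold change of BCL9 KD over NS control for each tested gene of the 10 feedback inhibitors and the 6 other lists, with filled points for genes past the limma threshold a blue line at each list's median and a grey band for the interquartile range of all genes tested. The medians run from −0.28 for receptors and ligands to 0.23 for other ERK-induced transcripts, and no feedback inhibitor is filled.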

How the data were processed

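RNA was measured by bulk sequencing in 3 NS control and 3 BCL9 KD samples, grouped by their labels. The labels and the table give 3 flasks per group, whereas the study's methods name 2 biological replicates per condition for its differential expression test; the SDs and p-values here are over the 3 labelled samples. The authors aligned reads with STAR to hg38 and counted them per gene with HTSeq 0.6.1, per the submitters' processing notes and the methods. They deposited FPKM, with the gene length in bases as another column. FPKM multiplied by length gave whole reads within a tolerance of 0.1, and hence the depth of each sample. Reads are not independent molecules, so counting error understates the uncertainty. Whether counting used strand is not given in the sources used here, so overlapping antisense reads cannot be told apart.

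Here log2(FPKM + 0.5) of genes with a mean of at least 0.5 FPKM was tested in limma 3.58.1 (R 4.3.3) with a trend, BCL9 KD against NS control, adjusted by Benjamini-Hochberg over all 13745 genes, with a threshold of 0.05. Fold changes on this scale understate those of genes with low FPKM. Single values used an exact two-sided permutation test. Figures and tables were made in Python 3.11.15 (matplotlib 3.10.9, scipy 1.17.1, pandas 2.3.3, numpy 2.4.6). The members and lists were chosen with earlier results of these data known. The genes named were all 10 members, BCL9, and from each list every gene that passed and up to 3 with the next largest change. A result of the RAS-ERK cascade list is not reported here. Alternatives were other added values, filters, scalings and fits, a replicate block and leaving out each sample. Voom on recovered reads and a GC correction (loess, span 0.3, transcript GC from the GRCh37 annotation, known for 98.8% of genes tested) were chosen after seeing the data.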

Additional observations from a re-analysis of the deposited data

How the results depend on the processing

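The 8 feedback inhibitors other than DUSP1 and SPRED1 kept their direction under every alternative run. Of the feedback inhibitors, 0 passed as reported, 1 with an added value of 1 FPKM, with a minimum mean of 1 FPKM or after quantile normalization, and 3 after GC correction. With each sample left out in turn, 0 to 2 passed. Over the whole table, 807 genes passed. The count was 142 with no filter, 332 without the trend, 1389 with voom and 1598 with the GC correction, and 5 to 1712 with each sample left out. It was 12 without NS control replicate 2, 1712 without NS control replicate 3, 13 without BCL9 KD replicate 2 and 5 without BCL9 KD replicate 3. Of the genes of the 6 lists, 14 passed, against 5 with no filter, 7 without the trend, 22 with the GC correction and 0 to 20 with each sample left out. The log2 fold change of BCL9 ranged from −1.06 to −0.95 with a sample left out, and without NS control replicate 2, BCL9 KD replicate 2 or BCL9 KD replicate 3 it did not pass (limma adjusted p 0.0637, 0.0600 and 0.0700). The direction turned for DUSP1 without NS control replicate 3 (−0.0053, the range over the 6 samples left out reaching 0.18), for SPRED1 without NS control replicate 2 (0.0027, the range starting at −0.19), and for MAP2K6 after GC correction (−0.0035, blocked or not). With fewer samples fewer degrees of freedom remain; otherwise the cause of these moves was not tested. The median of all genes lay between −0.01 and 0.06 across settings.

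Replicate numbers 1 to 3 are shared between the groups. Over all genes tested, same-numbered samples did not deviate together (correlations −0.1472, −0.0884 and −0.0029). Whether they shared a day or a batch was not tested. With the replicate block, 0 genes passed over the table, 0 in the lists, and BCL9 had a log2 fold change of −0.99 with a limma adjusted p of 0.0656. Under the block plus GC correction, 120 genes and 4 list genes passed. The planned edgeR, DESeq2 and TMM alternatives were not run; voom on the recovered reads was the one test of reads. Depth limited DUSP1 most among the feedback inhibitors.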
